A study of Mus musculus with 12 samples.

Results

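The genes described here handle zinc, iron, copper, calcium and magnesium in cultured mouse jejunal enteroids. They were chosen by symbol, with earlier results of these data known. Every row of the zinc transporter families Slc30a and Slc39a was taken, together with a set list of metallothionein, iron, copper, calcium and magnesium genes. This gave 41 of the 18929 genes listed in either of the deposited count tables, of which 40 were annotated as protein-coding and 1, Slc39a1-ps, as a processed pseudogene. Of the 41, 39 passed the filter on low counts in each comparison. The calcium channel gene Trpv6 had at most 3 counts and Slc39a1-ps at most 6 counts in any library, and both remained untested. Slc30a8 and Slc39a12 have no row in the tables used and were not analysed here.

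Metals cross the enterocyte, the absorptive cell of the small intestine, in steps carried by separate proteins. At the lumen, iron is reduced by CYBRD1 and imported by SLC11A2, zinc is imported by SLC39A4, and calcium enters through TRPV6. At the blood side iron leaves through SLC40A1, with HEPH oxidizing it, and zinc leaves through SLC30A1. Within the cell ferritin stores iron and metallothioneins bind zinc and copper. The transcription factor MTF1 senses zinc and acts on metal response elements in promoters, while the iron regulatory proteins encoded by Aco1 and Ireb2 bind hairpins, the iron-responsive elements, in untranslated regions of iron-handling mRNAs.

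Enteroids are cultures of intestinal epithelium grown from crypts in a gel matrix. After 5 days of culture, RNA was sequenced in 12 libraries: 4 of control enteroids (villin-Cre), 4 of Hdac1-deficient enteroids (labelled HDAC1-/-) and 4 of Hdac2-deficient enteroids (labelled HDAC2-/-). Deletion was driven by villin-Cre, which acts in intestinal epithelial cells, on floxed Hdac1 or Hdac2, the genes of the class I histone deacetylases compared in the study, in mice of a mixed background drawn from 3 strains. All groups grew in the same medium with EGF, Noggin and R-Spondin 1, and no metal was varied. The methods name 1 mouse per genotype as the source of crypts, so that genotype, mouse and line cannot be told apart, and every p-value measures only the spread between these libraries. Whether the control mouse carried floxed alleles is not stated, and its group is called both villin-Cre and wild type.

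Library depth lay between 20693200 and 30658628 counts. Levels are given in CPM (counts relative to the library total, scaled by TMM factors). The lowest level taken as detected, 3 counts, equalled 0.0979 to 0.145 CPM before the scaling by TMM factors. This floor covers counting error only. Hdac1 itself lay at 3.37 to 5.09 CPM in Hdac1-deficient against 87.5 to 94.4 CPM in control libraries. Hdac2 lay at 73.2 to 78.8 CPM in Hdac2-deficient against 132 to 141 CPM in control libraries, so that reads on the gene remained. The gene that was not targeted also lay below control without overlap in each mutant. Hdac2 lay at 106 to 114 CPM in Hdac1-deficient and Hdac1 at 68.7 to 78.5 CPM in Hdac2-deficient libraries. The summed level of 12 enterocyte markers was 8897 to 9504 CPM in control, 17582 to 19852 CPM in the Hdac1-deficient group and 14081 to 15665 CPM in Hdac2-deficient enteroids, and all 12 markers were increased in both mutants. The 5 stem cell markers summed to 3552 to 3764, 2010 to 2343 and 1682 to 1874 CPM in the same order, and all 5 were decreased in both. Goblet markers stood apart in the Hdac2-deficient group, with 3061 to 3290 CPM against 1890 to 2111 CPM in control and 1978 to 2122 CPM in Hdac1-deficient enteroids, where 4 of 8 goblet markers were nevertheless increased, 3 of them over 2-fold, and 2 decreased. Paneth cell markers summed to 2166 to 2535, 3216 to 3501 and 3445 to 3592 CPM in the order control, Hdac1 and Hdac2. Enteroendocrine markers summed to 241 to 252, 305 to 348 and 303 to 331 CPM in the same order. Both sums lay above control in each mutant, but the single markers did not all follow. Of 8 tested Paneth markers, 3 rose and 1 fell with loss of Hdac1, with a median log2 value of 0.05. With loss of Hdac2, 6 of them rose and 0 fell. Of 8 tested enteroendocrine markers, 6 rose and 0 fell with loss of Hdac1. With loss of Hdac2, 5 of these rose and 1 fell. The summed level of fibroblast, endothelial and immune markers was at most 6.45 CPM in any library. The part of these shifts in the results that follow was not tested, and in bulk RNA fewer cells of a type and less RNA per cell cannot be told apart. Xist, the X-inactivation transcript, lay at 1.41 to 1.72 CPM in control, 776 to 1078 CPM in the Hdac1-deficient group and 494 to 677 CPM in Hdac2-deficient libraries, so that the lines differed in this as well.

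Sequence shows which members carry the letters that metal-sensing regulators are known to read. The core of the metal response element was searched as TGCACNC and TGCGCNC, on both strands, in the 250 bases before the start of each gene in RefSeq's GRCm38.p6 promoters. Of 41 promoters of 34 members, 17 (41.5%) held at least 1 match, against 21.4% of all 32851 promoters. Heph, Slc11a2, Slc39a4, Slc39a6, Slc39a14, Slc40a1 and Slc39a1-ps had no promoter in the set searched, so nothing is known of their matches. At least 3 matches occurred in 1.26% of all promoters and, among members, in Mt2 and Slc30a10. The promoters of Mt1, Mt2 and Slc30a1 are shown because these are textbook MTF1 targets and were increased in both mutants, with matches in capitals on either strand.
Mt1 (chr8:94178839-94179088, plus strand): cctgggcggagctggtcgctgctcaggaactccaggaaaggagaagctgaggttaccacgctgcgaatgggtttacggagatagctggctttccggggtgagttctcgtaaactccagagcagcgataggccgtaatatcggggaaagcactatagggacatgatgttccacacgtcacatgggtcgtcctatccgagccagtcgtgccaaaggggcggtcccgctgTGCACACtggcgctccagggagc
Mt2 (chr8:94172368-94172617, plus strand): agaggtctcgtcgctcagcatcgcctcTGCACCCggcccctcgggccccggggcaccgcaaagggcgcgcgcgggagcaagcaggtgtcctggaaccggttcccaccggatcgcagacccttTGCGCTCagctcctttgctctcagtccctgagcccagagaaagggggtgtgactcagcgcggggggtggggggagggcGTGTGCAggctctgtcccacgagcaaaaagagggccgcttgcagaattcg
Slc30a1 (chr1:191906531-191906780, plus strand): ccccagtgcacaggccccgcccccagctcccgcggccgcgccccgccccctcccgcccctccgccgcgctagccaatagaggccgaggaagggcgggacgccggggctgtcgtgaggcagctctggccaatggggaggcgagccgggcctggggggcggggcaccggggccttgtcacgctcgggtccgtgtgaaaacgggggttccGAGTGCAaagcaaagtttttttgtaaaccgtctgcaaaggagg
Within these windows Mt1 held 1 match and Slc30a1 held 1, while Mt2 held 3. A match is a description of letters, not evidence that the factor binds, and letters outside the window were not searched. For Mt1 the annotated exons cover the whole gene, so a start further downstream may be in use. The letters before such a start were not searched, and the count for Mt1 holds for this window only.

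Iron-responsive elements were searched in the untranslated regions of GENCODE M21 transcripts as a C, 5 bases, the loop CAGTGN and 5 bases pairing with the first 5, with G-T pairs allowed. Such a hairpin occurred in 4 of 40 members and in 132 of 14264 protein-coding genes (0.925%), and only Tfrc and Egfl7 carried more than 1. The elements are shown because their hosts, both ferritin chains, the iron exporter and the transferrin receptor, were all decreased in Hdac1-deficient enteroids. Of all tested genes, 31.9% were lower there. The loop stands in capitals, and each is given as DNA, 5′ to 3′, on GRCm38.
Fth1 (5′ UTR, chr19:9982734-9982758, plus strand): cctgcttcaaCAGTGCttgaacgga
Ftl1 (5′ UTR, chr7:45459781-45459805, minus strand): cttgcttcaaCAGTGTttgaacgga
Slc40a1 (5′ UTR, chr1:45925467-45925491, minus strand): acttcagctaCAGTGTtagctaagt
Tfrc (3′ UTR, chr16:32631221-32631245, plus strand): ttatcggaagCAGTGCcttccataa
Tfrc (3′ UTR, chr16:32631600-32631624, plus strand): ttatcgggagCAGTGTcttccataa
Tfrc (3′ UTR, chr16:32631665-32631689, plus strand): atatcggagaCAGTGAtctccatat
Tfrc (3′ UTR, chr16:32631712-32631736, plus strand): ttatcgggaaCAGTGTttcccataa
The ferritin and Slc40a1 elements lie in the 5′ untranslated region, where iron regulatory proteins are known to block translation, and the 4 Tfrc elements in the 3′ untranslated region, where they are known to stabilize the mRNA. No hairpin of this exact form was found in the annotated transcripts of Slc11a2, which says only that these letters are absent there.

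**Figure D1:**
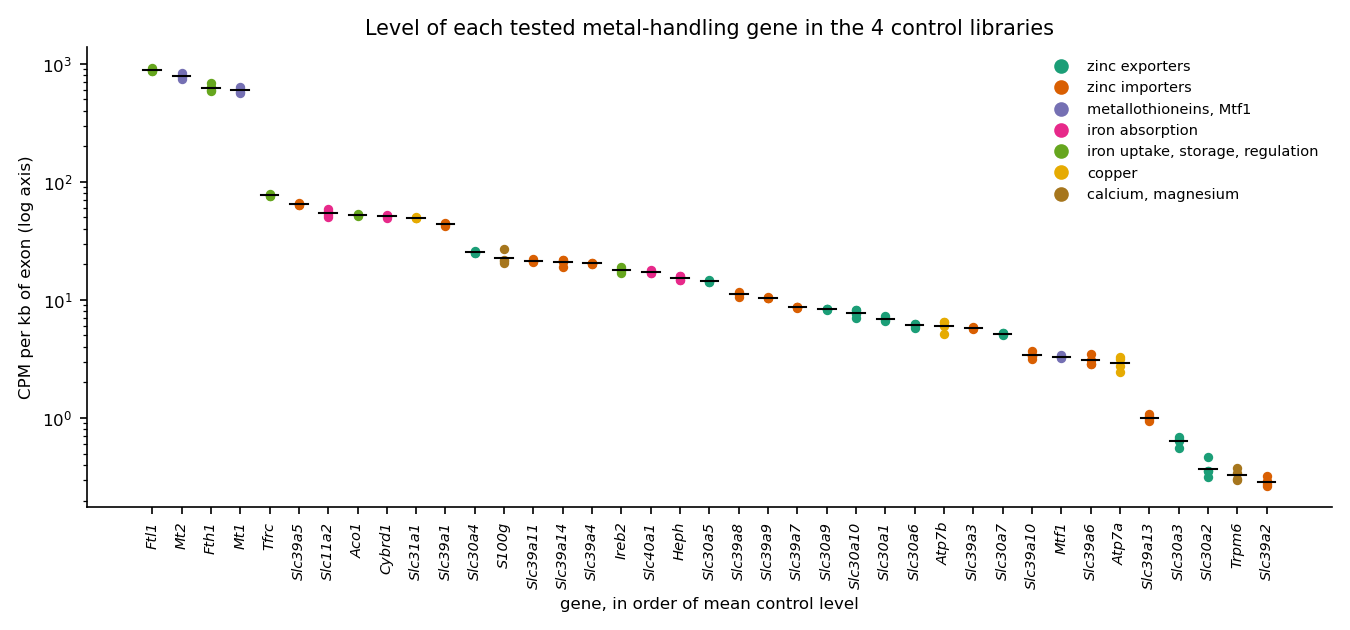
CPM per kilobase of exon (log axis) of the 39 tested genes in the 4 control libraries, in order of mean level, with points for libraries, black bars for means and colors for roles. Both ferritin chains and both metallothioneins lie between 597 and 885, and the next gene, Tfrc, lies at 77.4.

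In control enteroids the mRNAs of ferritin and metallothionein had the highest levels per kilobase among the members. Per kilobase of exon, Ftl1 reached 885 ± 26.00 CPM (mean ± SD, n = 4 here and throughout), Mt2 782 ± 36.8, Fth1 628 ± 45.9 and Mt1 597 ± 34.2, and Fth1 and Mt1 lay within 1 SD of each other. The plot of control levels shows a gap below them. Tfrc, the transferrin receptor, followed at 77.4 ± 1.46 CPM per kilobase, then Slc39a5 at 64.4 ± 1.19 and Slc11a2 at 54.6 ± 3.66. Slc11a2, Aco1, Cybrd1 and Slc31a1, the copper importer, lay between 49.7 and 54.6 CPM per kilobase. The lowest tested members were Slc30a2, Trpm6 and Slc39a2, between 0.289 and 0.372 CPM per kilobase. These levels divide by the union of all annotated exons, which was 3469 nucleotides for Fth1, 1340 for Ftl1, 1246 for Mt1 and 588 for Mt2. The order therefore rests on the annotation. Without division by length Fth1 was highest at 2178 CPM, and Mt2 at 460 CPM lay below Tfrc at 479 CPM. Reads shared with ferritin pseudogenes could not be separated, and the 1 such row listed, Ftl2-ps, held at most 0.234 CPM in any library.

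Loss of Hdac1 went with an increase of 18 and a decrease of 14 of the 39 tested members at an adjusted p of at most 0.05 (edgeR's quasi-likelihood F test, Benjamini-Hochberg adjustment over all tested genes), where 32.7% of all 14246 genes were higher and 31.9% lower. Loss of Hdac2 went with an increase of 22 and a decrease of 6, where 31.4% of all 14007 genes were higher and 30.9% lower. The shares of members past the threshold in either direction, 82.1% and 71.8%, therefore stood against high backgrounds. The 4 mutant libraries did not overlap the 4 control libraries for 31 members with Hdac1 (58.5% of all genes) and for 24 with Hdac2 (56.1% of all genes). The limit of 2-fold, the study's second criterion, was passed in Hdac1-deficient enteroids by 1 member upward, Mt2, and 4 downward, Cybrd1, Slc39a8, Slc40a1 and Slc39a10, where 6.87% of all genes were called higher and 3.71% lower. It was passed by 0 members in Hdac2-deficient enteroids, where 5.45% of all genes were called higher and 2.84% lower, and 28 members were past the adjusted p alone and 30 had an unadjusted p under 0.05. DESeq2 and edgeR's exact test also gave 0, and no tested member differed by 2-fold in either direction there, whatever its p. Over the tested members the log2 values had medians of 0.03 and 0.13, against -0.0040 and -0.0036 over all tested genes. The 4 control libraries entered both comparisons.

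**Figure D2:**
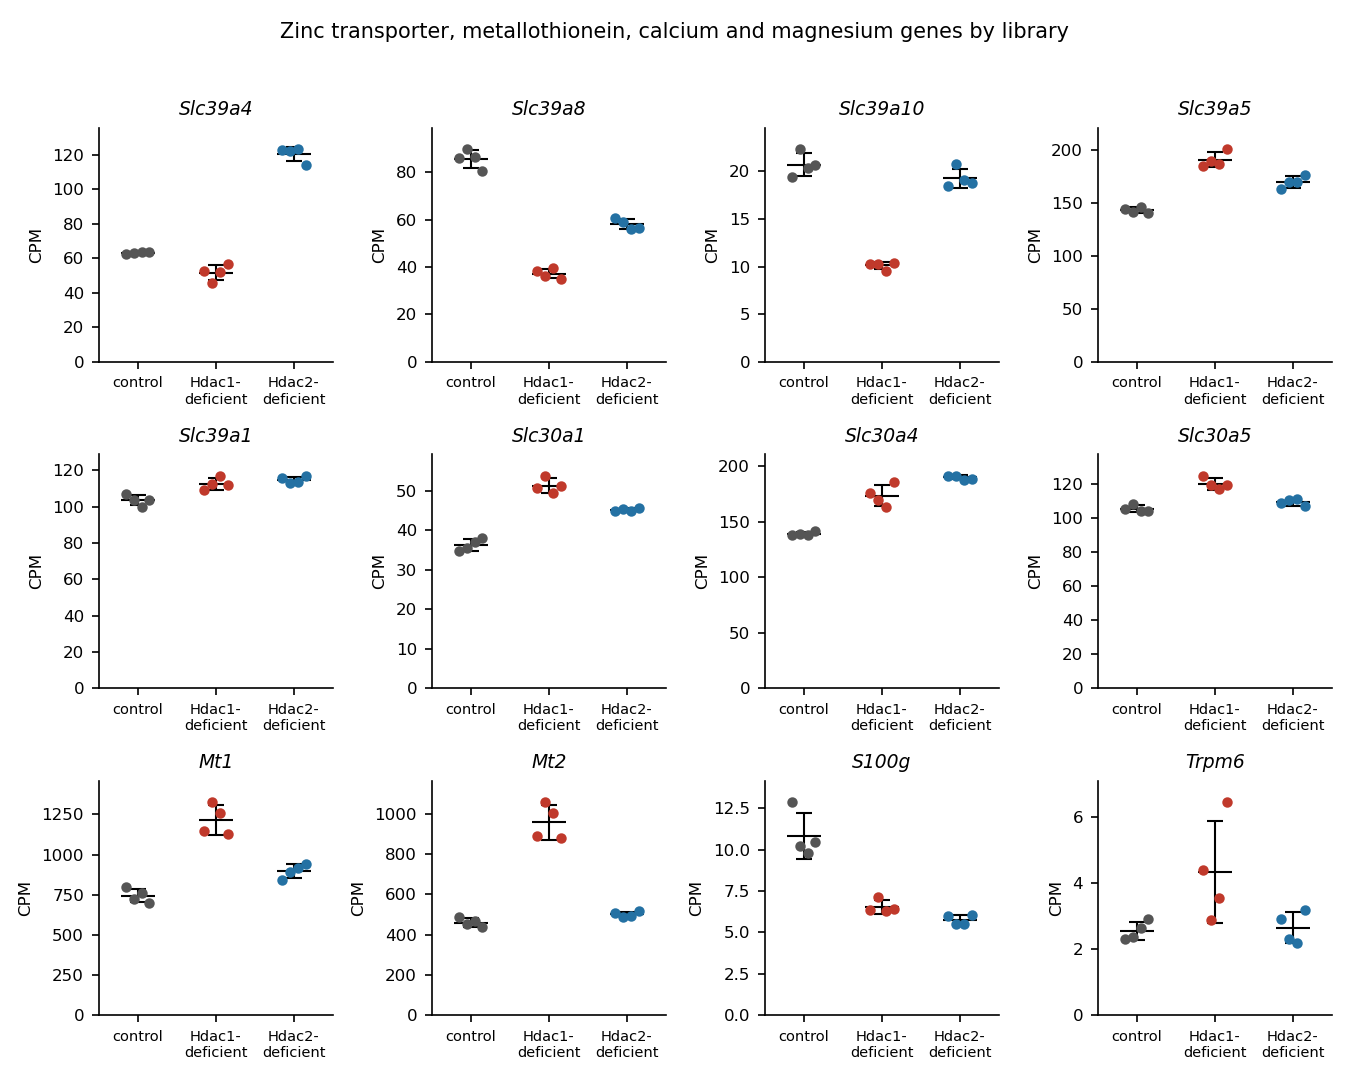
CPM of 12 zinc, metallothionein, calcium and magnesium genes in each library (points), with mean and SD in black, for 4 control, 4 Hdac1-deficient and 4 Hdac2-deficient libraries. Slc39a4 rises in the Hdac2-deficient group to 114 to 123 CPM, Slc39a8 and Slc39a10 are lowest in the Hdac1-deficient group, and Mt2 is highest there.

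Metallothioneins and Mtf1 were increased in both mutants, 3 of 3 in each, where 32.7% (Hdac1) and 31.4% (Hdac2) of all genes were higher. Mt2 (chr8:94172664-94173568, plus strand), a small cysteine-rich protein that binds zinc and copper, lay at 487, 451, 466 and 436 CPM in the 4 control libraries. It lay at 890.3, 1059, 1005 and 878 CPM in Hdac1-deficient and at 506, 489, 491 and 516 CPM in Hdac2-deficient enteroids. Every Hdac1-deficient library was therefore above every other, and the Hdac2-deficient libraries were just above control. The log2 fold change was 1.07 ± 0.06 (SE, adjusted p = 9.57e-10, 2.10-fold) for Hdac1 and 0.13 ± 0.03 (adjusted p = 0.00163) for Hdac2, by edgeR, and the second was lost with all 12 libraries in 1 fit (adjusted p = 0.0552).

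Mt1 (chr8:94179082-94180327, plus strand), its neighbour on chromosome 8 with the same function, lay at 797, 722, 758 and 700.2 CPM in control enteroids. The Hdac1-deficient libraries held 1144, 1326, 1258 and 1127 CPM and the Hdac2-deficient libraries 844, 891, 916 and 939 CPM, with no overlap between any pair of groups. The change was 0.72 ± 0.05 on the log2 scale for Hdac1 and 0.28 ± 0.04 for Hdac2, with adjusted p = 6.56e-09 and 4.51e-06 in edgeR. Mtf1 rose less, by 0.39 (adjusted p = 3.35e-07) and 0.21 (adjusted p = 3.36e-04), from 29.5 ± 0.595 CPM in control. In the direct comparison Mt2, Mt1 and Mtf1 were all higher with loss of Hdac1 than with loss of Hdac2, with log2 differences of 0.94, 0.44 and 0.18 and adjusted p of 1.67e-10, 2.30e-06 and 0.00168 in edgeR.

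Genes of the Slc30a family, called exporters here by family name, were mostly increased. Most are known to move zinc out of the cytosol into vesicles or out of the cell. The metal carried by each, as by Slc30a10, was not examined. Of 9 tested, 7 rose and 2 fell with loss of Hdac1, where 32.7% of all genes were higher and 31.9% lower. With loss of Hdac2, 5 rose and 0 fell, where 31.4% of all genes were higher and 30.9% lower. The median on the log2 scale was 0.33 both times. Those increased in both were Slc30a1, Slc30a4, Slc30a6, Slc30a7 and Slc30a10. Slc30a1 (chr1:191906767-191913247, plus strand), the zinc exporter of the plasma membrane, lay at 34.9, 35.4, 37.02 and 38.1 CPM in control, 50.7, 53.9, 49.5 and 51.3 CPM in the Hdac1-deficient group and 44.9, 45.3, 44.9 and 45.7 CPM in Hdac2-deficient enteroids. The 3 groups did not overlap. Its log2 fold change was 0.51 ± 0.04 (adjusted p = 3.19e-09) for Hdac1 and 0.33 ± 0.04 (adjusted p = 6.33e-07) for Hdac2.

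Slc30a4 (chr2:122681233-122702663, minus strand), a transporter of intracellular vesicles, was the most abundant exporter per kilobase of exon. It lay at 138, 139, 138 and 141 CPM in control, 175, 169, 163 and 185 CPM in the Hdac1-deficient group and 191, 191, 188 and 189 CPM in Hdac2-deficient libraries, lowest throughout in control. On the log2 scale the changes were 0.33 ± 0.04 with adjusted p = 1.39e-07 for Hdac1 and 0.46 ± 0.03 with adjusted p = 6.47e-12 for Hdac2, and the Hdac1-deficient level was -0.13 ± 0.03 relative to Hdac2-deficient on the same scale (adjusted p = 0.00186). Slc30a5, which supplies zinc to the secretory pathway, changed by 0.20 in Hdac1-deficient enteroids (adjusted p = 3.60e-05), from 104 to 108 CPM in control to 117 to 125 CPM. In Hdac2-deficient enteroids it lay at 107 to 111 CPM, and its difference of 0.06 missed the threshold (adjusted p = 0.0943).

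Slc30a3, known mainly as the zinc loader of synaptic vesicles, was the exception at low counts. It had 1.88, 1.79, 1.59 and 1.97 CPM in control, 1.24, 0.842, 0.591 and 0.982 CPM in the Hdac1-deficient group and 1.29, 1.45, 1.65 and 1.08 CPM in Hdac2-deficient libraries. With loss of Hdac1 its log2 value of -0.98 ± 0.20 (adjusted p = 2.31e-04) lay just inside the 2-fold limit and passed it without Hdac1-deficient replicate 1 or 4 or control replicate 3. In Hdac2-deficient enteroids the difference was -0.39 ± 0.17 (adjusted p = 0.054), which passed with the exact test, with library size alone, and without Hdac2-deficient replicate 3 or control replicate 3 (adjusted p from 0.0323 to 0.043). Slc30a9, the other decreased exporter, changed by -0.09 (adjusted p = 0.0296), a call lost with the replicate number as a block and without Hdac1-deficient replicate 3 or control replicate 2 or 4, and Slc30a2 rose by 0.87 (adjusted p = 5.65e-05) from 1.13 to 1.65 to 2.25 to 2.54 CPM. Slc30a9, Slc30a2 and the members Slc39a14, Slc39a2, Heph, Tfrc, Mtf1, Aco1, Ireb2 and Atp7a lie outside the rule for named genes and were added after their values were seen.

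Zinc importers of the Slc39a family, which move zinc into the cytosol, did not move as a block. Of 13 tested, 5 rose and 5 fell with loss of Hdac1 (all genes: 32.7% higher, 31.9% lower). With loss of Hdac2, 7 rose and 3 fell (all genes: 31.4% higher, 30.9% lower). The medians were 0.00045 and 0.16 on the log2 scale. Slc39a4 (chr15:76612383-76617384, minus strand), the luminal zinc importer of the enterocyte, lay at 62.5, 63.2, 63.9 and 63.6 CPM in control and 52.9, 45.7, 51.8 and 56.4 CPM in Hdac1-deficient libraries. In Hdac2-deficient libraries it lay at 123, 122, 123 and 114 CPM. Each group occupied its own range, with Hdac2-deficient highest and Hdac1-deficient lowest. It was the member with the largest change in the Hdac2 comparison, 0.94 ± 0.03 on the log2 scale (1.92-fold, adjusted p = 1.60e-15), while the change in Hdac1-deficient enteroids was -0.28 ± 0.05 (adjusted p = 5.84e-05). The direct difference between the mutants was -1.22 ± 0.05 (adjusted p = 2.63e-17), which is 2.34-fold lower in Hdac1-deficient enteroids.

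Slc39a8 (chr3:135825279-135888572, plus strand), an importer of zinc and manganese, was decreased in both mutants. It lay at 86.2, 89.9, 86.6 and 80.7 CPM in control, 38.5, 36.4, 39.5 and 34.8 CPM in the Hdac1-deficient group and 60.97, 59.3, 56.3 and 56.5 CPM in Hdac2-deficient libraries. The groups did not overlap, and the Hdac1-deficient level was lowest. Relative to control the log2 values were -1.19 ± 0.05 with adjusted p = 1.79e-14 for Hdac1 and -0.55 ± 0.04 with adjusted p = 1.48e-10 for Hdac2, and the direct difference was -0.64 ± 0.05 (adjusted p = 5.17e-12).

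Slc39a10 (chr1:46807544-46892852, minus strand), a plasma membrane importer, was decreased in Hdac1-deficient enteroids. It lay at 19.4, 22.3, 20.4 and 20.6 CPM in control and at 10.3, 10.3, 9.53 and 10.4 CPM in Hdac1-deficient libraries, while Hdac2-deficient libraries at 18.5, 20.7, 19.05 and 18.7 CPM overlapped control. The log2 fold change was -1.02 ± 0.06 (adjusted p = 2.47e-11) for Hdac1 and -0.09 ± 0.06 (adjusted p = 0.177) for Hdac2, and the mutants differed by -0.93 ± 0.06 (adjusted p = 2.97e-12). Its place past the 2-fold limit was lost without Hdac1-deficient replicate 3 or control replicate 2, where its adjusted p still passed. Slc39a14, which imports zinc and iron not bound to transferrin, changed in opposite directions, by -0.49 ± 0.04 with adjusted p = 1.66e-08 for Hdac1 and 0.21 ± 0.04 with adjusted p = 1.42e-04 for Hdac2, from 201 to 231 CPM in control libraries to 149 to 167 and 247 to 263 CPM.

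Of the most abundant importers per kilobase, Slc39a5, placed on the blood side of enterocytes, was increased in both mutants. It lay at 144, 141, 146 and 141 CPM in control, 185, 190.2, 187 and 201 CPM in the Hdac1-deficient group and 163, 170.4, 169.8 and 177 CPM in Hdac2-deficient libraries. All 3 ranges were separate, and the log2 scale gave 0.43 ± 0.03 with adjusted p = 7.42e-10 for Hdac1 and 0.26 ± 0.03 with adjusted p = 2.69e-07 for Hdac2. Slc39a1, a widely expressed importer, rose by 0.13 ± 0.03 with adjusted p = 0.00248 for Hdac1 and 0.16 ± 0.03 with adjusted p = 1.93e-04 for Hdac2, from 100.005 to 107 CPM to 109 to 117 and 113 to 117 CPM. Slc39a2 had only 9 to 33 counts per library. It changed by -0.89 ± 0.25 in Hdac2-deficient enteroids (adjusted p = 0.00353), from 0.915 to 1.11 to 0.332 to 0.679 CPM, and this passed the 2-fold limit without Hdac2-deficient replicate 3. The other tested importers, Slc39a3, Slc39a6, Slc39a7, Slc39a9, Slc39a11 and Slc39a13, had log2 fold changes between -0.14 and 0.32 for Hdac1 and between -0.18 and 0.42 for Hdac2.

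**Figure D3:**
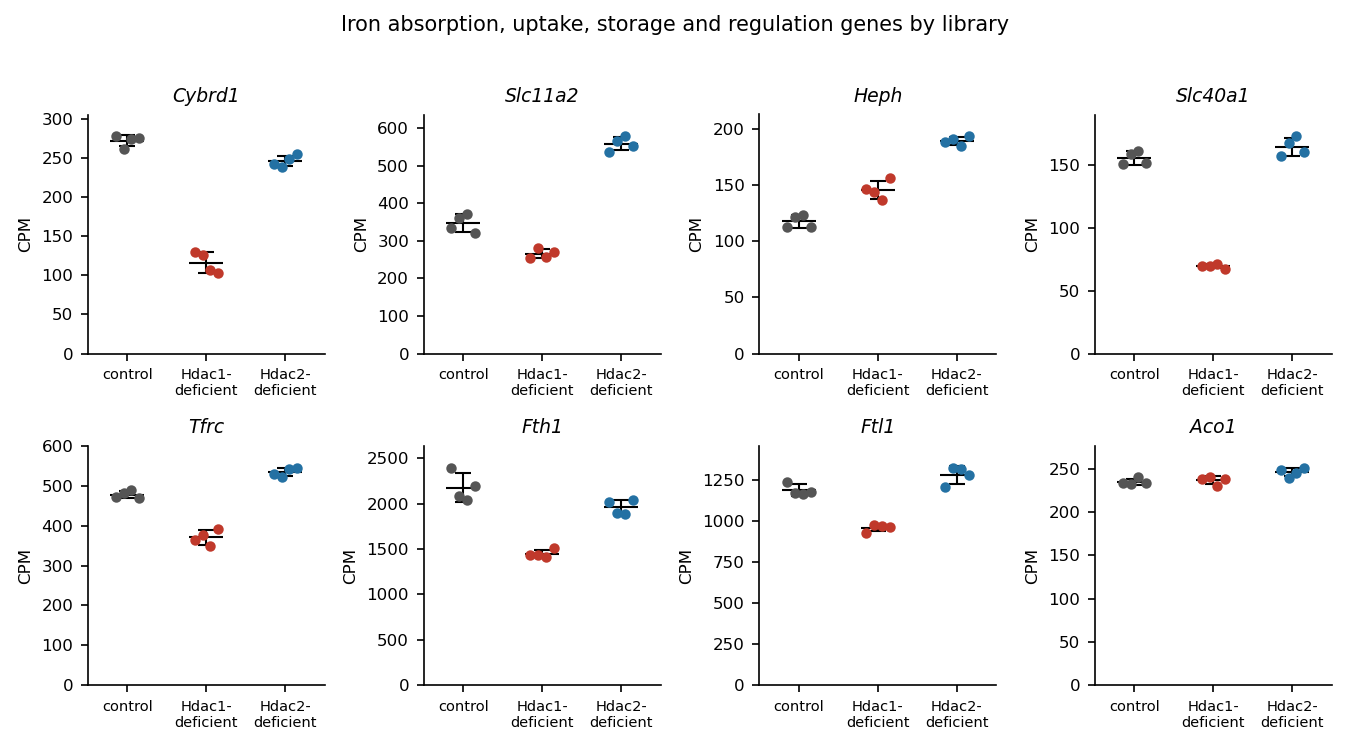
CPM of 8 iron genes in each library (points), with mean and SD in black, for 4 control, 4 Hdac1-deficient and 4 Hdac2-deficient libraries. Cybrd1 and Slc40a1 lie at 103 to 130 and 67.6 to 71.6 CPM in the Hdac1-deficient group, and Slc11a2 and Heph are highest in the Hdac2-deficient group.

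The iron absorption genes had the largest median difference between the mutants of the member lists, -1.08 on the log2 scale. In Hdac1-deficient enteroids 3 of 4 were decreased and 1 increased, where 31.9% of all genes were lower and 32.7% higher. In Hdac2-deficient enteroids 3 of 4 were increased and 1 decreased, where 31.4% of all genes were higher and 30.9% lower. Directly compared, 4 of 4 were lower in the first mutant than in the second, as were 23.7% of all genes. Cybrd1 (chr2:71117923-71142926, plus strand), the ferric reductase of the brush border, lay at 278, 262, 274 and 276 CPM in control libraries. It lay at 130.4, 125, 107 and 103 CPM in Hdac1-deficient and 242, 239, 249 and 255 CPM in Hdac2-deficient libraries. The groups did not overlap, and the Hdac1-deficient libraries were lowest by far. The log2 fold change was -1.21 ± 0.07 (2.32-fold lower, adjusted p = 4.28e-08) for Hdac1 and -0.14 ± 0.03 (adjusted p = 4.30e-04) for Hdac2, with a direct difference of -1.08 ± 0.06 (adjusted p = 3.28e-09).

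Slc11a2 (chr15:100387898-100425072, minus strand), the luminal importer of ferrous iron, went in opposite directions. Control libraries held 334, 359.9, 372 and 321 CPM, Hdac1-deficient libraries 255, 279.7, 258 and 269.8 CPM and Hdac2-deficient libraries 537, 566, 578 and 552 CPM. All 4 Hdac1-deficient libraries lay below control and all 4 Hdac2-deficient libraries above it. Its log2 changes were -0.37 ± 0.04 with adjusted p = 5.86e-07 for Hdac1 and 0.69 ± 0.04 with adjusted p = 7.59e-11 for Hdac2, and the mutants differed by -1.07 ± 0.04 (adjusted p = 7.23e-16), a 2.10-fold difference. Slc11a2 and Slc39a4 lie on chromosome 15, where protein-coding genes had median log2 values of -0.05 for Hdac1, 0.12 for Hdac2 and -0.16 between the mutants. Among autosomes other than 19 these were the lowest, the highest and the lowest median, in the same directions as both genes, and the part of the chromosome in their values was not tested.

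Slc40a1 (chr1:45908068-45926523, minus strand), which encodes ferroportin, the iron exporter, lay at 151, 159.5, 162 and 152 CPM in control. The Hdac1-deficient libraries held 70.03, 69.8, 71.6 and 67.6 CPM, far below, and the Hdac2-deficient libraries 158, 168, 173 and 161 CPM, overlapping control. The log2 fold change was -1.15 ± 0.04 (2.22-fold lower, adjusted p = 6.73e-16) for Hdac1. For Hdac2 it was 0.09 ± 0.03 (adjusted p = 0.0313), a call that was lost with DESeq2, with library size alone, and without Hdac2-deficient replicate 2 or 3 or control replicate 1 or 4. The direct difference, -1.24 ± 0.04 (adjusted p = 4.44e-20), was the largest of any member between the mutants.

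Heph (chrX:96455359-96574485, plus strand), the copper-dependent ferroxidase that works with ferroportin, was the absorption gene increased in both mutants. It lay at 113, 122, 123 and 113 CPM in control, 147, 144, 136 and 156 CPM in the Hdac1-deficient group and 189, 191, 185 and 194 CPM in Hdac2-deficient libraries, in 3 separate ranges. Against control this gave 0.32 ± 0.04 with adjusted p = 1.68e-06 for Hdac1 and 0.70 ± 0.03 with adjusted p = 2.41e-13 for Hdac2. Heph lies on chromosome X, where protein-coding genes had a median log2 value of -0.02 for Hdac1 and -0.04 for Hdac2. In Hdac1-deficient enteroids, where Cybrd1, Slc11a2 and Slc40a1 fell and Heph rose, the summed enterocyte marker level was higher than in control. The part of cell composition in these values was not tested.

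Among the genes of iron uptake, storage and regulation, Hdac1-deficient enteroids had 3 of 5 decreased and 0 increased, and Hdac2-deficient enteroids 1 decreased and 3 increased. Over all genes the shares were 31.9% lower and 32.7% higher for Hdac1, and 30.9% lower and 31.4% higher for Hdac2. Tfrc (chr16:32608920-32632794, plus strand), the receptor that takes up transferrin-bound iron, lay at 473, 483, 489 and 469 CPM in control, 366, 376, 349 and 392.4 CPM in the Hdac1-deficient group and 529.9, 524, 541 and 546 CPM in Hdac2-deficient libraries. Each Hdac1-deficient library was below and each Hdac2-deficient library above all control libraries. The edgeR estimates on the log2 scale were -0.36 ± 0.04 with adjusted p = 3.28e-08 for Hdac1 and 0.17 ± 0.03 with adjusted p = 2.08e-05 for Hdac2, with a direct difference of -0.53 ± 0.03 (adjusted p = 4.27e-13).

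Fth1 (chr19:9980598-9985098, plus strand), the heavy chain of ferritin, lay at 2397, 2079, 2043 and 2192 CPM in control, 1436, 1435, 1414 and 1509 CPM in the Hdac1-deficient group and 2019, 1893, 1887 and 2039.7 CPM in Hdac2-deficient libraries. Both mutants lay below control without overlap, by -0.58 ± 0.04 and -0.14 ± 0.04 on the log2 scale (adjusted p = 7.03e-10 and 0.00893). Fth1 lies on chromosome 19, where protein-coding genes had a median log2 value of -0.53 for Hdac1 and -0.52 for Hdac2, while on other autosomes such medians spanned -0.05 to 0.06 and -0.01 to 0.12. Relative to that median, the Fth1 value for Hdac1 was close to its chromosome and the value for Hdac2 was above it, and the part of the chromosome in these values was not tested. Between the mutants, where the chromosome 19 median was 0.02, Fth1 differed by -0.44 ± 0.04 (adjusted p = 7.31e-09).

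Ftl1 (chr7:45457944-45459884, minus strand), the light chain, lay at 1237, 1169.9, 1159.6 and 1177 CPM in control, 925, 975, 969 and 961 CPM in the Hdac1-deficient group and 1203, 1322, 1313 and 1279.8 CPM in Hdac2-deficient libraries. It was below control in every Hdac1-deficient library and overlapped control in the Hdac2-deficient group. The fitted log2 changes were -0.30 ± 0.03 with adjusted p = 1.82e-07 for Hdac1 and 0.12 ± 0.03 with adjusted p = 0.00412 for Hdac2, and the mutants differed by -0.42 ± 0.03 (adjusted p = 8.09e-11). Aco1 and Ireb2, which encode the iron regulatory proteins, differed from control on the log2 scale by 0.03 ± 0.03 and -0.07 ± 0.04 for Hdac1 (adjusted p = 0.48 and 0.101) and 0.08 ± 0.03 and -0.05 ± 0.03 for Hdac2 (adjusted p = 0.0212 and 0.164). The Aco1 call for Hdac2 was lost with library size alone, with no filter on low counts, and without Hdac2-deficient replicate 4 or control replicate 2 or 4. Ireb2 passed as lower without control replicate 1 in both comparisons, and also with all 12 libraries in 1 fit for Hdac1 and with library size alone for Hdac2.

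Both ferritin chains, Slc40a1 and Tfrc, the members with a hairpin of the searched form, were thus all decreased in Hdac1-deficient enteroids, those with 5′ and those with 3′ elements alike. In that comparison 31.9% of all genes were lower, and the Fth1 value lay close to the median of its chromosome, as given above. In Hdac2-deficient enteroids Ftl1, Slc40a1 and Tfrc had small positive and Fth1 a small negative log2 fold change. RNA counts do not measure the translation of these mRNAs.

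Of the 3 copper members, Atp7b passed the threshold in both comparisons with control, and Slc31a1 and Atp7a did so in neither. Slc31a1, the copper importer, lay at 212, 214, 211 and 215 CPM in control, 219.7, 213, 211 and 217 CPM in the Hdac1-deficient group and 222, 216, 215 and 222 CPM in Hdac2-deficient libraries, and the groups overlapped. Its log2 differences of 0.03 ± 0.03 and 0.05 ± 0.03 missed the threshold (adjusted p = 0.431 and 0.127). Atp7b, a copper pump known for export into bile and the secretory pathway, lay at 33.7, 38.8, 42.5 and 41.9 CPM in control, 45.6, 43.8, 43.9 and 50.9 CPM in the Hdac1-deficient group and 44.6, 42.3, 41.6 and 45.7 CPM in Hdac2-deficient libraries. It rose by 0.24 ± 0.07 with adjusted p = 0.00558 for Hdac1 and 0.16 ± 0.06 with adjusted p = 0.0353 for Hdac2, the second with overlapping libraries and a call lost with library size alone and without Hdac2-deficient replicate 1 or 4 or control replicate 1 or 2, falling to 0.09 without control replicate 1. Atp7a, the pump that exports copper from enterocytes, had differences of -0.12 ± 0.08 with adjusted p = 0.202 for Hdac1 and 0.08 ± 0.08 with adjusted p = 0.366 for Hdac2, with a direct difference, Hdac1 minus Hdac2 mutant, of -0.21 ± 0.07 (adjusted p = 0.0264). This call was lost with library size alone and without Hdac1-deficient replicate 2 or 3 or Hdac2-deficient replicate 1, 2 or 3, and the Hdac1 difference from control passed without control replicate 1 (-0.20, adjusted p = 0.00793).

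Of the calcium and magnesium genes, S100g (chrX:162961992-162964599, minus strand), which encodes the calcium-binding protein calbindin-D9k of the enterocyte, was decreased in both mutants. It lay at 12.9, 10.2, 9.81 and 10.5 CPM in control, 6.34, 7.16, 6.27 and 6.40 CPM in the Hdac1-deficient group and 6.005, 5.51, 5.53 and 6.03 CPM in Hdac2-deficient libraries. Control was above both mutants in every library. This amounted to -0.72 ± 0.09 with adjusted p = 9.16e-07 for Hdac1 and -0.90 ± 0.09 with adjusted p = 2.88e-08 for Hdac2, and the mutants' difference of 0.18 ± 0.10 missed the threshold (adjusted p = 0.132). Trpv6, the luminal calcium channel, had 1 to 3 counts in control and 0 to 3 counts in both mutants, and at this depth no difference was detectable.

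Trpm6 (chr19:18749983-18892511, plus strand), a magnesium channel, lay at 2.31, 2.36, 2.64 and 2.90 CPM in control and 4.39, 2.88, 3.55 and 6.44 CPM in Hdac1-deficient libraries, which overlapped, and at 2.91, 2.30, 2.18 and 3.17 CPM in Hdac2-deficient libraries. Its log2 fold change was 0.76 ± 0.22 (adjusted p = 0.00926) for Hdac1, with Hdac1-deficient replicate 4 the highest library, and 0.07 ± 0.15 (adjusted p = 0.694) for Hdac2. Trpm6 lies on chromosome 19, on which the medians given above for Fth1 were negative. The direct difference of 0.69 ± 0.21 passed (adjusted p = 0.0136) with overlapping libraries and was 0.44 (adjusted p = 0.0261) without Hdac1-deficient replicate 4.

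**Figure D4:**
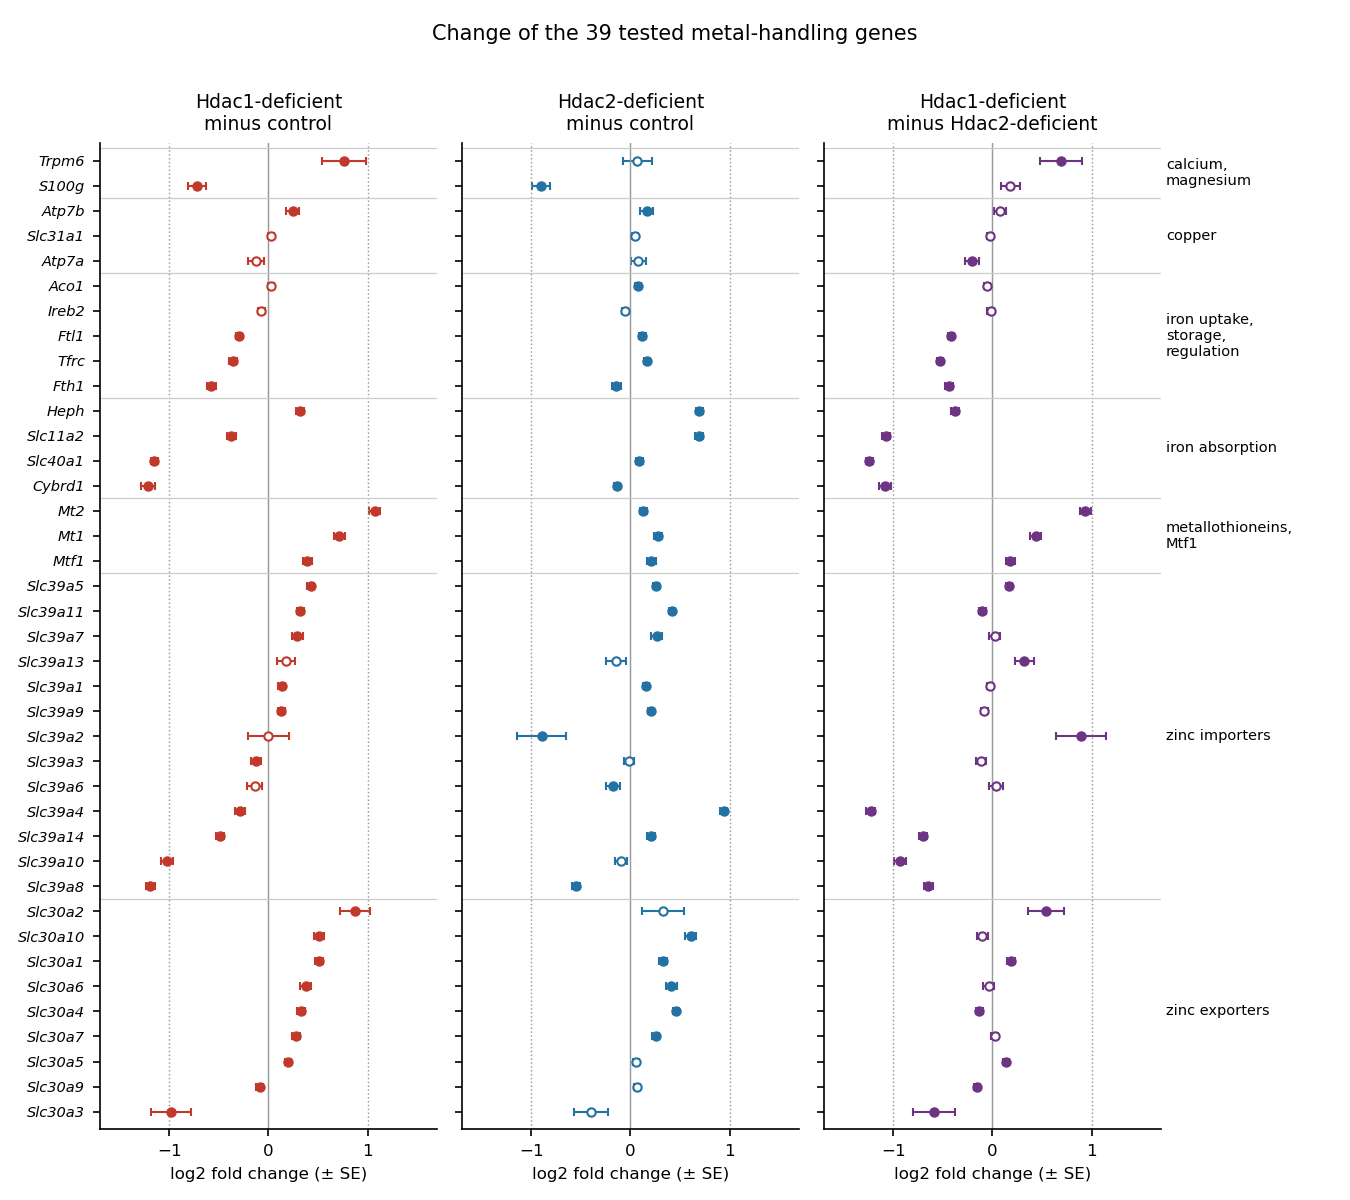
Log2 fold change ± SE (edgeR) of the 39 tested genes, grouped by role, for each mutant minus control and for Hdac1-deficient minus Hdac2-deficient enteroids, with filled points at an adjusted p of at most 0.05, open points otherwise and dotted lines at 2-fold. Among iron absorption genes the points lie left of 0 in the right panel, with Slc40a1 farthest at -1.24, and metallothioneins and Mtf1 lie right of 0 in all panels.

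Compared directly, Hdac1-deficient and Hdac2-deficient enteroids differed in 26 of the 39 tested members, with 10 higher and 16 lower in Hdac1-deficient enteroids, where 22.3% of all 14510 genes were higher and 23.7% lower. The libraries of the mutants did not overlap for 26 members, against 41.8% of all genes. Over 2-fold, 4 were lower in Hdac1-deficient enteroids, Slc40a1, Slc39a4, Cybrd1 and Slc11a2, where 2.89% of all genes were, and 0 were higher, where 2.74% of all genes were, with 10 higher at the adjusted p alone and also 10 at an unadjusted p under 0.05 (edgeR, and 0 over 2-fold also with DESeq2 and the exact test). The 4 genes all act in uptake of iron or zinc by the enterocyte or in its export. The median over the 39 was -0.05, against 0.01 over all tested genes.

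Members that passed as lower in the Hdac1 comparison and as higher in the Hdac2 comparison were Ftl1, Slc11a2, Slc39a14, Slc39a4, Slc40a1 and Tfrc. Their direct differences lay between -1.24 and -0.42. Genes chosen for opposite changes from the same control libraries will differ in this way, so these differences add no separate evidence. The share of all genes with this pattern was not counted. Of these 6, Slc11a2, Slc39a14, Slc39a4 and Tfrc had Hdac2-deficient libraries wholly above control, and the Slc40a1 increase depended on the setting as given above. Since the same control libraries entered both comparisons, the members that moved alike in both mutants are given by their own values and not counted as agreement.

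Other genes of the same pathways, taken from lists set beside the members, moved in both directions. Of 24 tested iron genes, 9 rose and 10 fell with loss of Hdac1, and 9 rose and 9 fell with loss of Hdac2. Over all genes, 32.7% were higher and 31.9% lower for Hdac1, and 31.4% higher and 30.9% lower for Hdac2. Flvcr2, of a family known for heme and choline transport, lay at 0.352 to 0.714 CPM in control, 1.16 to 2.36 CPM in the Hdac1-deficient group and 3.59 to 4.31 CPM in Hdac2-deficient libraries, a rise on the log2 scale by 1.67 and 2.83 (adjusted p = 6.45e-06 and 1.55e-11). Tfr2, a sensor of transferrin iron, fell in both, with log2 values of -2.09 and -1.40 (adjusted p = 3.00e-08 and 1.37e-05), from 1.59 to 2.06 CPM in control to 0.337 to 0.493 and 0.368 to 0.859 CPM. Hmox1, which releases iron from heme, rose by 1.15 in Hdac2-deficient enteroids (adjusted p = 3.03e-10) and had a difference of -0.27 in Hdac1-deficient enteroids (adjusted p = 0.0604), with a direct difference of -1.41 (adjusted p = 2.65e-10). Ncoa4, the receptor that carries ferritin to lysosomes, followed the opposite-sign pattern with -0.76 and 0.14 (adjusted p = 9.79e-12 and 0.0021), and was named after its values were seen.

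Of 9 tested copper genes, 5 rose and 2 fell with loss of Hdac1, and 4 rose and 2 fell with loss of Hdac2. The shares over all genes are those given for the iron genes. The largest were Sco1, which delivers copper to cytochrome oxidase, at 0.53 and 0.27 (adjusted p = 4.68e-09 and 2.45e-05), Ccs, the copper chaperone of superoxide dismutase, at -0.36 and -0.41 (adjusted p = 2.72e-06 and 3.36e-07), and Sco2, a partner of Sco1, at 0.20 and 0.36 (adjusted p = 0.0274 and 1.78e-04). Ccs also lies on chromosome 19. Of the 2 tested zinc genes, Gpr39, a zinc-sensing receptor, rose by 0.44 and 0.48 (adjusted p = 1.84e-07 and 2.90e-09), and Mt4, a metallothionein of stratified epithelia, rose by 0.96 in Hdac2-deficient enteroids (adjusted p = 4.96e-06) from 1.51 to 2.18 to 3.20 to 3.56 CPM.

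Of the calcium and magnesium genes beyond the members, 11 rose and 6 fell of 21 tested with loss of Hdac1, where 32.7% of all genes were higher and 31.9% lower. With loss of Hdac2, 12 rose and 5 fell of 20 tested, where those shares were 31.4% and 30.9%. The magnesium transporter gene Slc41a2 lay at 12.8 to 14.9 CPM in control, 27.7 to 31.3 CPM in the Hdac1-deficient group and 30.97 to 36.2 CPM in Hdac2-deficient libraries, a log2 rise by 1.16 and 1.32 (adjusted p = 1.46e-12 and 6.80e-14). Slc41a3, of the same family, rose by 1.88 and 1.36 (adjusted p = 2.79e-06 and 9.38e-04) from 0.211 to 0.603 CPM in control. Atp2b4, a calcium pump of the plasma membrane, rose from 0.141 to 0.378 CPM to 0.81 to 1.71 and 0.995 to 1.95 CPM, by 2.21 and 2.35 on the log2 scale (adjusted p = 4.77e-06 and 8.24e-07). All 3 genes were thus higher in both mutants than in control, at levels from near the floor for Atp2b4 to over 30 CPM for Slc41a2. Cyp27b1, which makes the active form of vitamin D, went the other way with log2 values of -1.29 and -1.07 (adjusted p = 0.00134 and 0.00736), from 0.504 to 0.871 CPM in control libraries, at most 26 counts in any of them, to 0.187 to 0.427 and 0.184 to 0.477 CPM, and was named after its values were seen.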

How the data were processed

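RNA-Seq counts from 12 libraries, 4 per group by the genotype and number in their labels, were used. The authors enriched poly(A) RNA with a directional kit, sequenced it in pairs, and aligned it to GRCm38 with STAR (2.4.0f1 in the submitters' processing notes). The program and strand setting used for counting are not given in the sources used here. They deposited, per mutant, raw counts of reads per gene, without normalization, listing genes that reached a sum of 10 over the 8 libraries, and the 4 control libraries are the same in both tables. A further 16 columns of normalized values per library and the columns of the authors' own fold changes and p-values were not used.

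Counts were tested with edgeR (4.0.16, R 4.3.3) (quasi-likelihood F test, robust fit, TMM factors and filterByExpr) over all tested genes (14246, 14007 and 14510), with Benjamini-Hochberg adjustment. Calls follow the study's adjusted p of at most 0.05 and log2 fold change beyond 1. Each mutant was fitted with control, and the direct comparison used all 12 libraries. The SE is the log2 fold change over √F. CPM used TMM factors of all 12 libraries. The scripts were tested on simulated counts.

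Positions and exon lengths came from GENCODE M21 and promoters from RefSeq (GRCm38.p6). Flvcr1, Flvcr2 and the Paneth cell marker Defa30 were matched by their Ensembl identifiers, since the deposited data list older symbols. Members and lists were chosen with earlier results of these data known. Values per library are given for members called in any comparison, for Mt1, Mt2, Slc30a1, Slc39a4, Slc11a2, Slc40a1, Trpv6 and S100g, and, per list, for the 2 highest per kilobase and the largest change, and of the other pathway lists up to 3 genes with the largest changes past the adjusted p are named. Alternatives were DESeq2 (1.42.0), the exact test of edgeR, factors by relative log expression, library size alone, no filter, a mean count of at least 10, a replicate block, other sets of libraries in the fit, and each library left out in turn. No source used here says that equal replicate numbers belong together, and the main fits did not pair libraries by them. Figures were drawn with matplotlib 3.10.9 in Python 3.11.15.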

Additional observations from a re-analysis of the deposited data

Results flagged for a closer look

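Between the mutants, 7 members differed by the direct edgeR test with either opposite changes from control or a difference over 2-fold. By that test alone 22.3% of all genes were higher and 23.7% lower in Hdac1-deficient enteroids. The share of all genes that meet the combined rule was not counted. The log2 differences, Hdac1-deficient minus Hdac2-deficient, were -1.24 for Slc40a1, -1.22 for Slc39a4, -1.08 for Cybrd1, -1.07 for Slc11a2, -0.70 for Slc39a14, -0.53 for Tfrc and -0.42 for Ftl1. In each of the 7, all 4 Hdac1-deficient libraries lay below all 4 Hdac2-deficient libraries. Of all genes, 41.8% had no overlap between the mutants, in either direction.

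Single libraries lay apart from the other 3 of their group by Dixon's limit in 5 of 117 groups of 4, where chance alone gives about 5%. Slc39a10 lay at 9.53 CPM in Hdac1-deficient replicate 3, against 10.3 to 10.4 CPM in the others. Slc39a9 lay at 108.0 CPM in the same library, against 117 to 118 CPM. Slc39a4 lay at 114 CPM in Hdac2-deficient replicate 4, against 122 to 123 CPM. S100g lay at 7.16 CPM in Hdac1-deficient replicate 2, against 6.27 to 6.40 CPM. Aco1 lay at 241 CPM in control replicate 3, against 233 to 234 CPM.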

How the results depend on the processing

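The number of members over 2-fold was the same under every alternative that kept all libraries, in each comparison and direction. With single libraries left out, the number over 2-fold lower in Hdac1-deficient enteroids ranged from 3 to 5, that over 2-fold lower in Hdac2-deficient enteroids from 0 to 1 (Slc39a2, without Hdac2-deficient replicate 3), and that over 2-fold higher in the first mutant than in the second from 0 to 1 (Slc39a2, without Hdac1-deficient replicate 2 or Hdac2-deficient replicate 3). Counts at the adjusted p alone stayed within 1.5 times the main count throughout. Over the 39 tested members and 3 comparisons, no member past the threshold changed sign, while 8 of the 117 values, each under 0.09 on the log2 scale and not past the threshold, had the other sign under at least 1 alternative. Calls were lost for 11 of the 117 values and gained for 7, the largest lost being -0.59 for Slc30a3 between the mutants. The losses were Slc30a9 and Slc39a3 for Hdac1, Aco1, Atp7b, Mt2, Slc39a6 and Slc40a1 for Hdac2, and Atp7a, Slc30a2, Slc30a3 and Slc39a11 between the mutants. The gains were Atp7a and Ireb2 for Hdac1, Ireb2, Slc30a3 and Slc30a9 for Hdac2, and Slc39a3 and Slc39a9 between the mutants. The adjusted p of Mt2 for Hdac2 was 0.0552 with all 12 libraries in 1 fit, and that of Slc40a1 for Hdac2 0.171 with library size alone. Same-numbered libraries of different groups had correlations of deviations between -0.045 and 0.091, with 0 of 12 pairs over 0.1. No pairing by number was seen, but such correlations cannot exclude a shared culture or preparation. With the replicate number as a block, 1 member was over 2-fold higher and 4 lower in Hdac1-deficient enteroids, 0 either way in Hdac2-deficient enteroids, and 0 higher and 4 lower between the mutants, and at the adjusted p alone the number lower in Hdac1-deficient enteroids was 12. Low counts limit precision for Slc39a2, with 9 to 33 counts per library, and Slc30a3, with 18 to 56, and 1 mouse per genotype limits every comparison.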

Other observations

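Of the members' 41 promoters, those with at least 2 matches to the metal response element core were Mt2 and Slc30a10 with 3 and Atp7a, Slc30a2, Slc30a4 and 1 of the promoters of Tfrc with 2. Their log2 fold changes in Hdac1-deficient enteroids were 1.07, 0.51, -0.12, 0.87, 0.33 and -0.36, and that of Atp7a missed the threshold. In Hdac2-deficient enteroids they were 0.13, 0.61, 0.08, 0.33, 0.46 and 0.17, where those of Atp7a and Slc30a2 missed it. The part of the matches in these values was not tested. Of all promoters, 5.17% hold at least 2 matches.

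Flvcr1, a heme exporter of the plasma membrane, had 72.1 to 76.3 CPM with Hdac1 and Hdac2 intact, 125 to 171 CPM in the Hdac1 mutant and 98.9 to 122 CPM in the Hdac2 mutant. Slc25a37, which imports iron into mitochondria, had log2 fold changes of 0.86 and 0.21, and the share of counts on mitochondrial genes was 1.51 to 1.60%, 2.53 to 2.88% and 1.64 to 1.91% in the same order. Both genes were named after their values were seen.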
